A study of Danio rerio with 32 samples.

Results

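Cytochrome P450 families 1 to 4 are the enzymes with which vertebrates oxidise drugs, pollutants, steroids, vitamins and fatty acids. They sit in the endoplasmic reticulum, carry a heme at the active site and take electrons from P450 reductase and cytochrome b5; the liver is the organ best known for them. Fish hold large sets of family 2 genes, many of them tandem copies of subfamilies that mammals lack. Members were taken by symbol: a row of the count table whose symbol is cyp1, cyp2, cyp3 or cyp4 followed by a letter, with at least 10 counts in 8 or more of the 32 libraries. Of 31658 genes in the table, 53 had such a symbol and 35 reached the minimum: 4 of 5 in family 1, 24 of 40 in family 2, 4 of 4 in family 3 and 3 of 4 in family 4.

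The libraries came from adult female zebrafish of the AB strain, either wild type or knocked out for gys2, which encodes liver glycogen synthase. Liver and skeletal muscle of 8 fish per genotype were sequenced by Lasy-Seq, which counts polyadenylated transcripts at their 3′ ends. This gave 4 groups of 8 libraries: wild-type liver, knockout liver, wild-type muscle and knockout muscle. All fish were kept at 28.5 °C under a 14-h light cycle and no other treatment is named. The sources used here give neither the lesion, nor the number of mutant lines, nor which liver belongs with which muscle; tissue tests treat the libraries as independent.

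Depth ran from 1514099 to 2366219 counts in wild-type liver and from 2562717 to 15351773 in knockout liver, with no overlap, and from 1664493 to 7264469 over both muscle groups. gys2 itself averaged 10.4 ± 6.30 CPM (counts scaled to a common library size) in wild-type liver against 1.08 ± 0.755 CPM in knockout liver (SD, n = 8 each). The 18 hepatocyte markers summed to 29907 to 126176 CPM in wild-type livers against 61348 to 160115 CPM in knockout livers, and none was at 0 throughout; the 20 muscle markers summed to 103386 to 262941 CPM in muscle. Exocrine pancreas markers were also present in liver, at 43.5 to 2188 CPM in wild type against 120 to 3335 CPM in knockout, and their part in the results was not tested. In such bulk samples fewer cells of a type and less RNA per cell cannot be told apart. All CPM values are scaled within a tissue, so a level set across tissues rests on separate scalings, while log2 changes between tissues come from a joint fit.

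The minimum of 10 counts favoured the deep knockout livers. Without them, cyp2r1, cyp2k22, cyp3c3, cyp3a65, cyp2n13 and cyp2aa2 would not have reached it, and without both liver groups 15 of the 35 would not. Just inside the minimum stood cyp2aa2, with 10 libraries at 10 counts or more, and cyp2k22 and cyp2n13 with 13 each. Just outside it stood cyp2aa1 and cyp2aa4 with 5 libraries, and cyp2k8 and cyp1c2 with 4. With every library thinned to 1514099 counts, 30 of the 53 symbols reached it, and cyp2k22, cyp2p7, cyp2aa2, cyp2ae1 and cyp1c1 did not. The 18 below the minimum held few counts everywhere except cyp2aa4, which had 273 counts in a single knockout liver, number 1, out of 402 over the 8 knockout livers.

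Many members are tandem neighbours, and reads of near-identical copies may be divided between them in ways the counts do not show. In the RefSeq gene order of assembly GRCz12tu, used here for order alone, all 53 symbols were found. With neighbours taken as at most 5 coding genes apart, 11 symbols of the cyp2n, cyp2ad, cyp2v, cyp2p and cyp2j subfamilies formed a single run that holds 8 members. Another run of 11 held cyp2aa genes and cyp2ae1, of which 5 are members. Shorter runs held 8 cyp2k genes (3 members), cyp2x6 to cyp2x9 (4 members) and cyp3c1, cyp3c3 and cyp3c4 (3 members).

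The same 3 genes, cyp2ad2, cyp2k6 and cyp2y3, led the P450 transcripts of the liver in both genotypes. Each 3′ read stands for a transcript end, so counts are not divided by length. The 35 members together came to 1444 ± 456 CPM in wild-type liver, 1895 ± 650 CPM in knockout liver, 247 ± 112 CPM in wild-type muscle and 235 ± 65.3 CPM in knockout muscle (SD, n = 8 each). In wild-type liver the order of mean levels was cyp2ad2 (197 ± 98.7 CPM), cyp2k6 (197 ± 110 CPM), cyp2y3 (163 ± 75.1 CPM) and cyp1a (95.6 ± 36.4 CPM). In knockout liver it was cyp2k6 (242 ± 124 CPM), cyp2y3 (235 ± 166 CPM), cyp2ad2 (217 ± 66.7 CPM) and cyp1a (145 ± 39.1 CPM). cyp2k22 had the same knockout mean as cyp1a to 3 digits, made by a single liver. The leading 3 held 13.6%, 13.6% and 11.3% of the summed member CPM in wild type and 12.8%, 12.4% and 11.5% in knockout. They stood closer to each other than their standard deviations in both genotypes, so their order is not resolved.

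**Figure D1:**
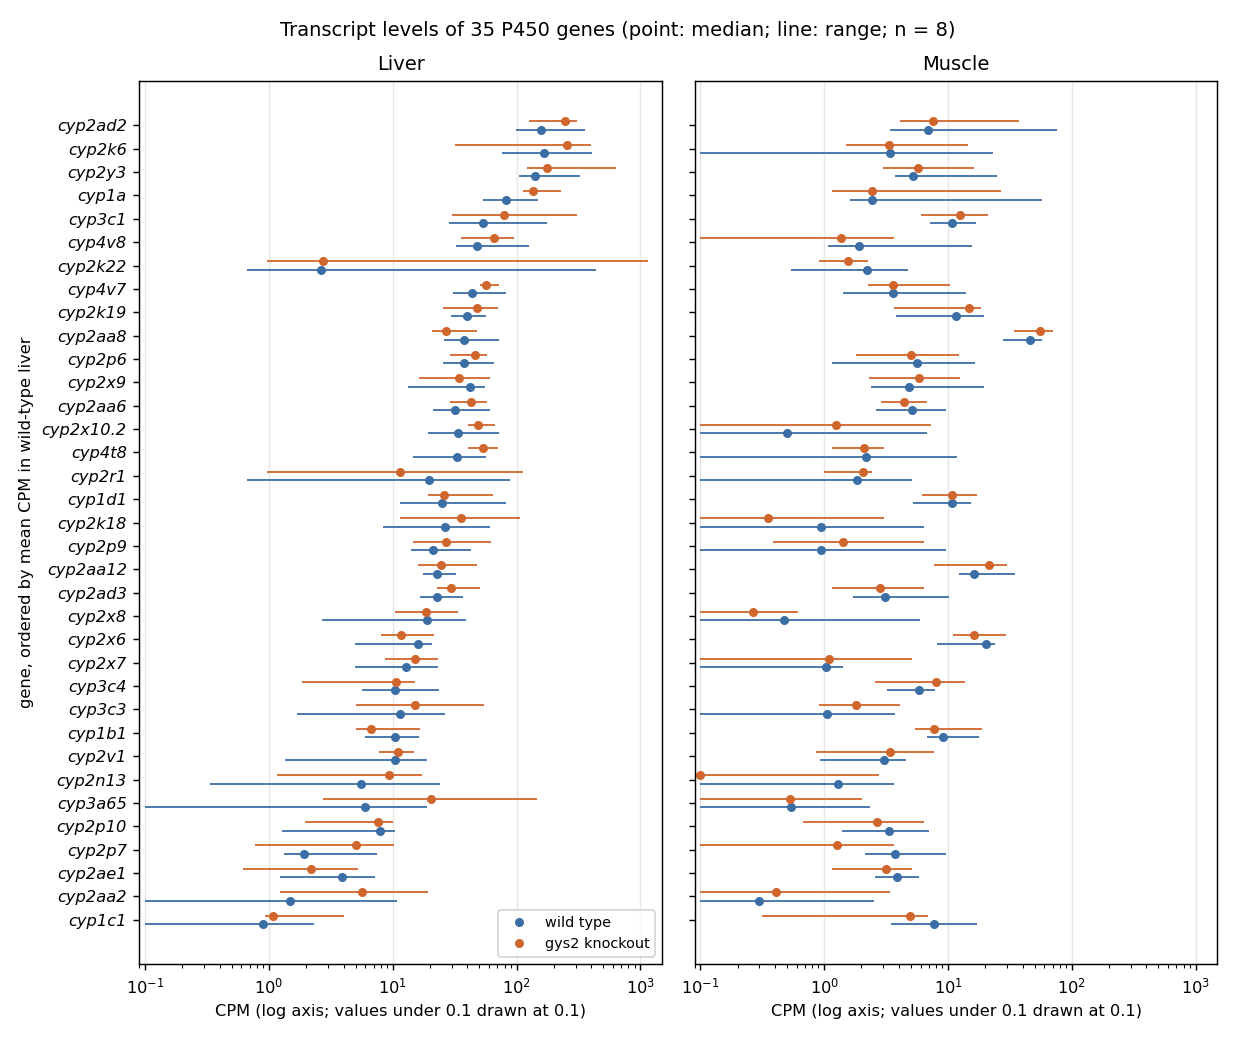
Levels of the 35 P450 genes in CPM on a log axis, in liver (left) and muscle (right), wild type in blue and knockout in orange; points are medians and lines run from the lowest to the highest of 8 libraries. Most genes sit far to the right in liver, while cyp2aa8, cyp2aa12, cyp2x6 and cyp1b1 lie at similar places in both tissues and cyp1c1 lies lower in liver. Of the 35 genes, 15 reach the count minimum only through the livers and cyp1c1 only through muscle, which favours higher values in that tissue. cyp2p7, among the 15, still averaged 4.60 CPM in wild-type muscle against 3.69 CPM in wild-type liver.

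The family 1 genes are best known as targets of the aryl hydrocarbon receptor. cyp1a, which oxidises planar aromatic hydrocarbons, was the only member of its family over 100 CPM in any group mean. cyp1d1, a gene whose human counterpart is a pseudogene, averaged 31.2 ± 22.1 CPM in wild-type liver, 33.7 ± 16.6 CPM in that of the knockout and 10.8 CPM in muscle of each genotype. cyp1b1, known for oxidising steroids and retinoids, stood near 10 CPM in both tissues: 10.9 ± 3.19 CPM in wild-type liver against 10.6 ± 3.9 CPM in wild-type muscle. cyp1c1 stood at 0.958 ± 0.830 CPM in wild-type liver against 8.41 ± 4.55 CPM in wild-type muscle. It reaches the count minimum only through the muscle libraries, which favours this direction, so the difference is no support for it.

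Family 2 held the bulk of the transcripts, and its subfamilies differed in how evenly the copies were used. Summed over all symbols of a subfamily, wild-type liver held 327 ± 157 CPM of cyp2k, 221 ± 102 CPM of cyp2ad, 126 ± 38.6 CPM of cyp2x, 108 ± 15.5 CPM of cyp2aa and 75.3 ± 23.2 CPM of cyp2p. cyp2ad2 made up most of its subfamily, with cyp2ad3 at 23.8 ± 6.80 CPM. These 2 genes belong, with cyp2n, cyp2v and cyp2p, to the fish relatives of the mammalian CYP2J arachidonic acid epoxygenases; in killifish, enzymes of the 2N and 2P subfamilies oxidise arachidonic acid. The other members of that neighbourhood stood below cyp2ad2 in wild-type liver: cyp2p6 at 40.1 CPM, cyp2p9 at 24.5, cyp2v1 at 10.6, cyp2n13 at 8.70, cyp2p10 at 6.71 and cyp2p7 at 3.69 CPM. In cyp2x, a fish subfamily, levels were spread over cyp2x9 (39.8 CPM), cyp2x10.2 (36.3), cyp2x8 (19.5), cyp2x6 (15) and cyp2x7 (14.3 CPM). Within cyp2k, the zebrafish enzyme of cyp2k6 is known to activate aflatoxin; its neighbours cyp2k19 and cyp2k18 averaged 41.4 and 27.2 CPM in wild-type liver. Within cyp2aa, 3 genes were at similar levels, cyp2aa8 at 40.2, cyp2aa6 at 36.5 and cyp2aa12 at 23.9 CPM, and cyp2aa2 was at 2.86 CPM. cyp2ae1, beside them in the genome, was at 3.61 CPM.

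Families 3 and 4 had fewer genes. CYP3 enzymes oxidise steroids and a wide range of drugs, and CYP4 enzymes hydroxylate the far end of fatty acids. In wild-type liver cyp3c1 averaged 66.5 ± 48.4 CPM, cyp3c4 12.4 ± 5.81, cyp3c3 12.2 ± 9.67 and cyp3a65, the CYP3A gene of zebrafish, 8.42 ± 7.72 CPM. cyp4v8 and cyp4v7, relatives of human CYP4V2, averaged 58.7 ± 32.4 and 48.9 ± 17.9 CPM, and cyp4t8 averaged 34.4 ± 15.3 CPM.

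Liver and muscle were first compared to see where each gene is used. In wild-type fish 22 of the 25 members tested were higher in liver at an adjusted p under 0.05, none was lower, while of the 10648 genes tested 15% were higher and 18.9% lower in liver. In knockout fish, whose libraries are not used by the wild-type comparison, 26 of 29 were higher and none lower, against 21.2% and 22.2% of 11685 genes. All 22 genes called in wild type were called again in knockout. Since 15 of the 35 reach the count minimum only through liver libraries, these counts describe the genes that could be tested and do not stand for the whole set. Of the genes called in both, cyp1a, cyp2k18, cyp2p9, cyp2x7, cyp2x8, cyp2x10.2, cyp4t8 and cyp4v8 are among those 15. So are cyp2aa2, cyp2n13 and cyp3c3, called in knockout alone. The minimum favoured liver for these genes, so their calls are no support, and the counts above and medians below include them. The median log2 change of liver over muscle was 3.16 in wild type and 3.78 in knockout over the members tested, against 0.01 and −0.15 over all genes tested.

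Among the members tested that reach the count minimum without the livers, cyp2k6 had the largest log2 change of liver over muscle in both genotypes, by edgeR's quasi-likelihood test with Benjamini-Hochberg adjustment. cyp2k6 ran from 76.6 to 410 CPM in wild-type liver and from 0 to 23.2 CPM in wild-type muscle, with no overlap, at a log2 change of 5.57 ± 0.68 (SE; adjusted p = 5.14e-06). In knockout fish its log2 change was 6.24 ± 0.57 (adjusted p = 3.71e-08). cyp2y3 came next, with 4.79 ± 0.42 in wild type (adjusted p = 1.42e-08) and 5.59 ± 0.42 in knockout (adjusted p = 1.84e-10). Other members reach the minimum only through the livers, which favours higher values in liver, so their log2 changes are given without a test. Among these, cyp2x8 had 4.31 ± 0.67 in wild type and 6.66 ± 0.39 in knockout, cyp2k18 4.35 ± 0.67 and 6.35 ± 0.60, and cyp2x10.2 4.91 ± 0.58 and 5.29 ± 0.53. In family 4, cyp4v8 had 4.36 ± 0.57 and 5.78 ± 0.38 and cyp4t8 3.75 ± 0.51 and 5.14 ± 0.23, and cyp1a had 3.68 ± 0.78 and 5.21 ± 0.58. At the low end of the genes called in both, cyp2aa12 changed by 0.68 ± 0.22 in wild type (adjusted p = 0.0182) and 0.96 ± 0.25 in knockout (adjusted p = 0.00292), and its groups overlapped.

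**Figure D2:**
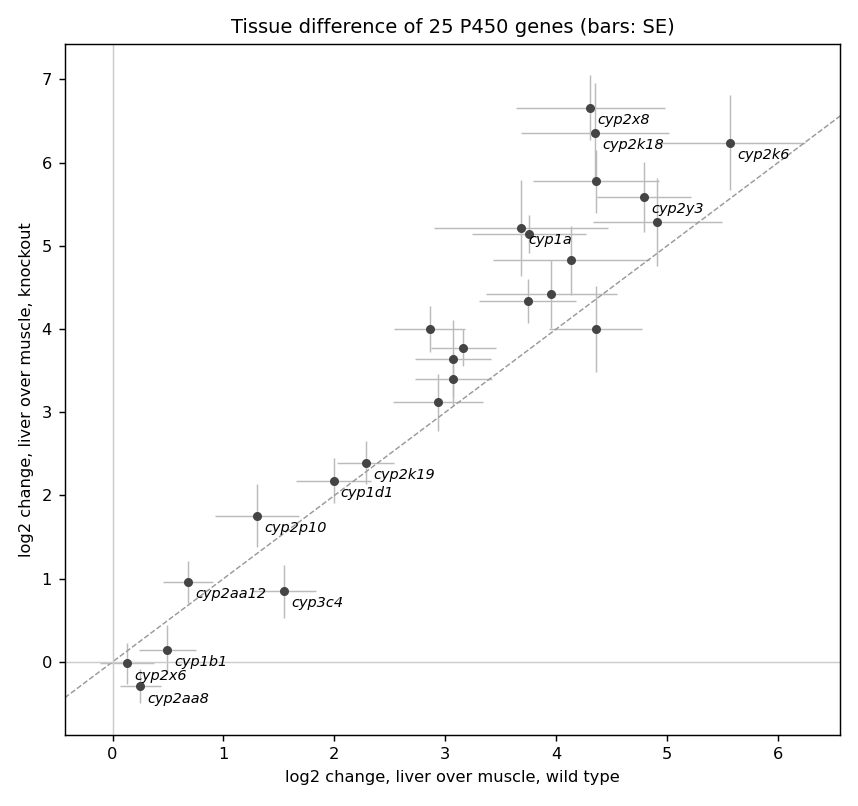
Log2 change of liver over muscle in wild type (horizontal) and in knockout (vertical) for the 25 P450 genes tested in both, with standard errors as bars; the dashed line marks equal changes. cyp2aa8, cyp2x6 and cyp1b1 lie near 0 on both axes, and cyp2k6, cyp2x8 and cyp2k18 lie far up. cyp2x8, cyp2k18, cyp1a, cyp2p9, cyp2x7, cyp2x10.2, cyp4t8 and cyp4v8 reach the count minimum only through the livers, which favours higher values in liver.

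A small set of P450 genes had no called difference between muscle and liver. cyp2aa8, cyp2x6 and cyp1b1 were tested and not called in either genotype, which does not show equal levels. For cyp1b1 the log2 change of liver over muscle was 0.49 ± 0.26 in wild type (adjusted p = 0.156). cyp2ae1 and cyp2p7, whose wild-type means were higher in muscle, were not tested between the tissues. cyp2aa8 was the leading P450 transcript of muscle, at 28 to 57.3 CPM in wild-type muscle against 34 to 71.1 CPM in knockout muscle, next to 25.8 to 72.3 CPM in wild-type liver against 20.8 to 47.6 CPM in knockout liver. Its log2 change of liver over muscle was 0.25 ± 0.19 in wild type (adjusted p = 0.345) and −0.29 ± 0.21 in knockout (adjusted p = 0.26). When library totals replaced the TMM scaling in the knockout fit, cyp2aa8 and cyp2x6 were called lower in liver and 24 members higher. That scaling moved the median of all genes to −1.03, with 17.8% of all genes positive. It called a large part of all genes tested, as counted in the last section. Next in muscle came cyp2aa12, at 20.0 ± 8.09 CPM in wild type against 20.3 ± 7.72 CPM in knockout, and cyp2x6, at 18.5 ± 5.44 and 18.4 ± 6.53 CPM. cyp1c1, a fish gene of family 1, was not tested between tissues in wild type for low counts in liver. DESeq2 and the fit with no filter called it lower in liver there, and neither called it in knockout. It reaches the count minimum only through the muscle libraries, which favours lower values in liver, so these calls are no support for it.

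Muscle libraries held hepatocyte transcripts at a low and even level, so that low P450 values in muscle were set beside them. With library 6 of each genotype left out, 17 of 18 hepatocyte markers stood in wild-type muscle at 1.15% to 3.25% of their mean CPM in liver, and rbp4 at 15.5%. In knockout muscle the 17 stood at 0.704% to 2.18%, and rbp4 at 7.45%. At or below the highest of the 17 were 5 of 35 members in wild type, namely cyp2x10.2, cyp2k6, cyp4v8, cyp1a and cyp2x8. In knockout the same 5 genes and cyp2k18, cyp2k22 and cyp2n13 were at or below it, 8 in all. The remaining 30 and 27 members stood above those 17 markers, with medians over all 35 of 12% in wild type and 9.79% in knockout. These counts rest on setting rbp4 aside. With all 18 markers, 23 members in wild type and 15 in knockout stood at or below the highest marker, and 12 and 20 above it. Whether liver RNA supplied the muscle counts of any gene was not tested.

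Library 6 of each muscle group stood apart in the P450 genes. Its hepatocyte markers summed to 9589 CPM in wild type, against 1288 to 1808 CPM in the other 7 libraries, and to 4808 CPM in knockout, against 1022 to 1527 CPM. The wild-type library held the highest value of 20 of the 35 members and the knockout library that of 19, and the lowest value of none. cyp1a stood at 57.9 CPM in wild-type muscle 6 with a group median of 2.45 CPM, and at 26.7 CPM in knockout muscle 6 with a median of 2.42 CPM. cyp2ad2 stood at 76.5 and 37.7 CPM there, with medians of 6.92 and 7.58 CPM. Without these libraries the log2 change of liver over muscle was positive for 26 of 26 members tested in wild type and 30 of 31 in knockout. Of all genes tested, 51.7% and 49.3% were positive. The members include genes that reach the count minimum only through the livers, which favours higher values in liver, so these counts are no support.

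**Figure D3:**
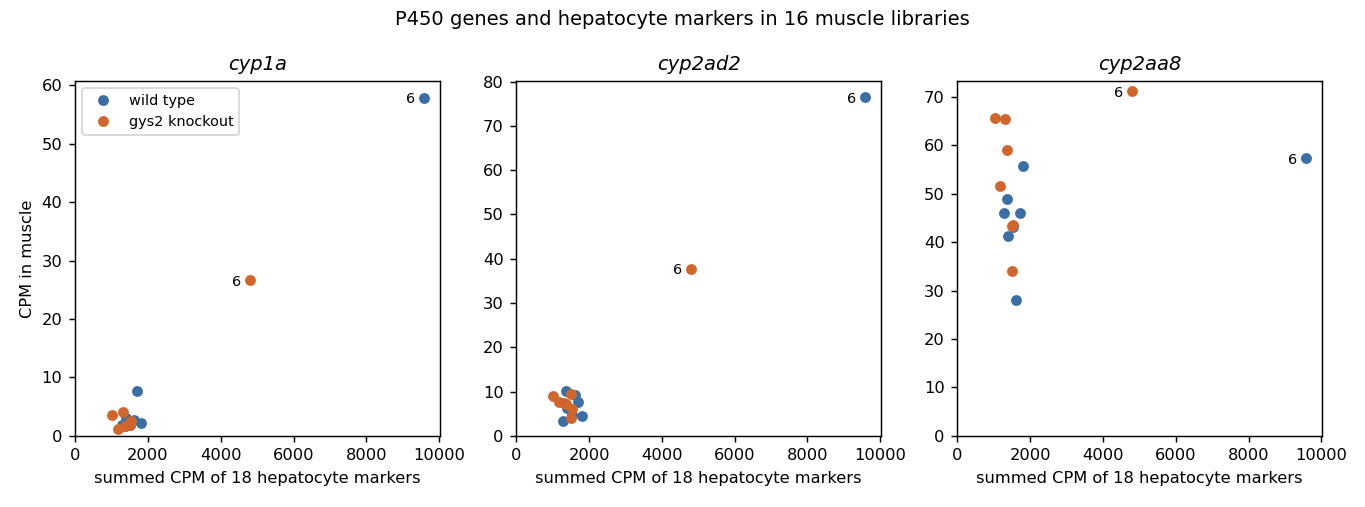
CPM of cyp1a, cyp2ad2 and cyp2aa8 in each of 16 muscle libraries (vertical) against the summed CPM of 18 hepatocyte markers in the same library (horizontal), wild type in blue and knockout in orange; the libraries numbered 6 are marked. cyp1a and cyp2ad2 are high in those libraries alone, at 57.9 and 26.7 CPM and at 76.5 and 37.7 CPM, while cyp2aa8 lies between 28 and 71.1 CPM across all libraries.

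Comparing the livers of the 2 genotypes asks whether loss of the liver glycogen synthase goes with a change in these enzymes. No member passed the test: of 30 members tested, 0 were called by edgeR's quasi-likelihood test at a Benjamini-Hochberg adjusted p under 0.05, where 0.0742% of 9438 genes were called (7 genes). DESeq2 and limma-voom also called 0 members. At an unadjusted p under 0.05, 5 members were higher in knockout and 0 lower, while 10.3% of all genes tested were higher and 12.1% lower at that level. The log2 change was positive for 25 of the 30 and negative for 5, with 48.2% of all genes positive. With library totals in place of TMM, which put the median of all genes at −0.54, the split was 8 positive and 22 negative. Among the 25 are cyp2r1, cyp3c3, cyp3a65 and cyp2n13, which reach the count minimum only through the knockout livers. That favours higher values in knockout, so these counts are no support, and the median below includes them. cyp3a65 is also among the 5 at an unadjusted p under 0.05. The median log2 change was 0.18 over the 30 and −0.02 over all genes. Hepatocyte markers moved alongside, with positive values for 17 of 18 and a median of 0.46, and none of them was called. Markers of some other cell types were mostly positive as well: 14 of 14 of exocrine pancreas (median 0.83), 6 of 7 of erythrocytes (0.72), 6 of 7 of bile duct cells (0.60) and 10 of 11 of macrophages (0.51). The rest were mixed or negative, with 3 of 5 positive for enterocytes (0.39), 2 of 3 for adipocytes (0.09), 8 of 16 for muscle (−0.006) and 1 of 5 for endothelium (−0.19). The part of any of these in the P450 values was not tested.

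The 2 smallest p-values in liver belonged to cyp4t8 and cyp1a. cyp4t8 stood at 14.7, 32.9 and 56.4 CPM in the lowest, median and highest wild-type liver and at 40.7, 53.2 and 70.9 CPM in the knockout livers. Each knockout liver exceeded the median of the wild types, and the groups overlapped through the highest 2 wild-type livers. The log2 change was 0.62 ± 0.24 (SE; adjusted p = 0.149). For cyp1a the lowest, median and highest values were 53.6, 82.2 and 149 CPM in wild type against 112, 135 and 229 CPM in knockout. Again each knockout liver exceeded that median, while wild-type livers 2, 5 and 6 reached into their range. The log2 change was 0.60 ± 0.24 (adjusted p = 0.164). With library totals in place of TMM the log2 change was 0.13 for cyp4t8 and 0.11 for cyp1a.

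cyp2ad3, cyp2x10.2 and cyp2y3 had values of the same size. cyp2ad3 stood at 16.7, 23 and 37.0 CPM in wild type against 22.8, 29.8 and 50.2 CPM in knockout (lowest, median, highest), a log2 change of 0.50 ± 0.21 (adjusted p = 0.17). cyp2x10.2 stood at 19.3, 33.5 and 72.0 CPM and at 40.2, 48.5 and 67.5 CPM, a log2 change of 0.54 ± 0.23 (adjusted p = 0.183). Its highest liver of all 16 was a wild-type liver, number 5, and the other 7 wild-type livers reached at most 44.2 CPM. cyp2y3 stood at 105, 140 and 327 CPM and at 121, 177 and 632 CPM, a log2 change of 0.53 ± 0.32 (adjusted p = 0.31). The groups overlapped for all 3 genes. With library totals the log2 change was −0.033 for cyp2ad3, of the opposite sign, 0.057 for cyp2x10.2 and 0.11 for cyp2y3.

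Of the CYP3 genes, cyp3a65 had the largest log2 change and a wide error. It stood at 0, 5.97 and 18.8 CPM in wild type against 2.73, 20.2 and 147 CPM in knockout, a log2 change of 2.07 ± 0.86 (adjusted p = 0.183). cyp3a65 reaches the count minimum only through the knockout livers, which favours this direction, so its values are a description and no support. The knockout range was set by liver 1; 6 of the 8 exceeded the median of the wild types, and without that liver the log2 change was 1.13 (adjusted p = 0.428). cyp3c1 stood at 28.5, 53.9 and 177 CPM in wild type against 30.2, 79.1 and 306 CPM in knockout, a log2 change of 0.77 ± 0.50 (adjusted p = 0.345). cyp2k18 stood at 8.30, 26.3 and 60.6 CPM and at 11.4, 35.5 and 106 CPM, a log2 change of 0.63 ± 0.42 (adjusted p = 0.36). Both genes overlapped over most of their range.

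cyp1b1 and cyp2aa8 had the smallest p among the negative values. cyp1b1 stood at 5.99, 10.4 and 16.3 CPM in wild type against 5.04, 6.65 and 16.7 CPM in knockout, a log2 change of −0.51 ± 0.27 (adjusted p = 0.262). Liver 8 alone carried the high end of the knockout group, and 7 of 8 knockout livers lay under the wild-type median. cyp2aa8 stood at 25.8, 37.7 and 72.3 CPM and at 20.8, 27 and 47.6 CPM, a log2 change of −0.39 ± 0.23 (adjusted p = 0.301). With library totals in place of TMM these 2 genes, cyp2x6 and cyp3c4 were the 4 members called, all lower in knockout. That scaling put the median of all genes at −0.54, with 16% of all genes positive. It called a large part of all genes tested, as counted in the last section.

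**Figure D4:**
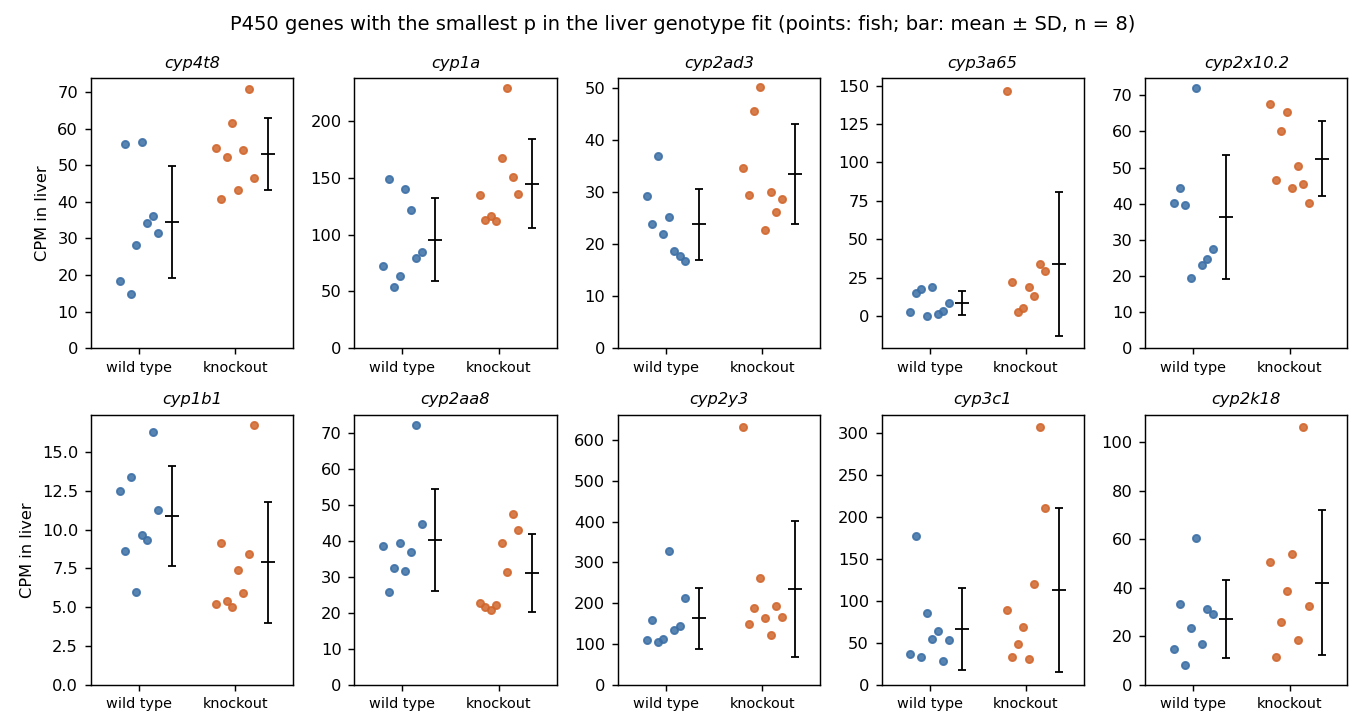
CPM in each wild-type (blue) and knockout (orange) liver for the 10 P450 genes with the smallest p; black bars are means with standard deviations, n = 8 livers per genotype. The groups overlap in every panel, and a single knockout liver sets the upper range of cyp3a65 (147 CPM) and of cyp2y3 (632 CPM). For cyp3c1, knockout livers 7 and 8 stand at 306 and 210 CPM, above the highest wild-type liver at 177 CPM. cyp3a65 reaches the count minimum only through the knockout livers, which favours higher values there.

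By the mean over all 16 livers, cyp2ad2, cyp2k6, cyp2p6, cyp2aa6 and cyp4v8 led their subfamilies, although cyp2aa8 stood above cyp2aa6 in wild type. They differed between genotypes by less than 1 standard error or little more. cyp2ad2 stood at 98.8, 158 and 359 CPM in wild type against 125, 245 and 305 CPM in knockout liver, a log2 change of 0.14 ± 0.28 (adjusted p = 0.771). cyp2k6 stood at 76.6, 167 and 410 CPM and at 31.7, 254 and 396 CPM, a log2 change of 0.30 ± 0.40 (adjusted p = 0.661). Their groups shared nearly the whole range. For cyp2p6 the log2 change was 0.16 ± 0.20 (adjusted p = 0.635), at 25.3, 37.8 and 66.1 CPM against 28.9, 46.3 and 57.3 CPM. cyp2aa6 stood at 21, 31.7 and 61.5 CPM and at 29.2, 42.5 and 57.9 CPM, a log2 change of 0.26 ± 0.23 (adjusted p = 0.487). For cyp4v8 it was 0.15 ± 0.27 (adjusted p = 0.751), at 32.6, 47.6 and 125 CPM against 35.4, 65.3 and 95.0 CPM. All 5 overlapped between the genotypes, and the log2 change of each had the opposite sign with library totals.

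The other 15 members tested in liver had log2 changes between −0.33 ± 0.31 for cyp3c4 and 0.62 ± 0.57 for cyp3c3, and adjusted p-values of 0.365 or more. Of these, cyp3c3, cyp2r1 and cyp2n13 reach the count minimum only through the knockout livers, which favours higher values there. cyp2x6 and cyp2x9 were also negative, at −0.27 ± 0.27 and −0.02 ± 0.27. cyp4v7, the gene with the least spread between knockout livers, stood above the wild-type median in all 8 of them, at a log2 change of 0.30 ± 0.20 (adjusted p = 0.365). Of the 5 members not tested in liver, cyp2k22 averaged 57.9 CPM in wild type against 145 CPM in knockout, each mean made by a single liver. cyp2aa2 averaged 2.86 and 7.36, cyp2p7 3.69 and 5.10, cyp2ae1 3.61 and 2.39, and cyp1c1 0.958 and 1.54 CPM. cyp2k22 and cyp2aa2 also reach the count minimum only through the knockout livers.

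In muscle no member passed the test either. Of 18 members tested 0 were called, as were 0% of 12415 genes, and DESeq2 and limma-voom called 0 members. At an unadjusted p under 0.05, 1 member was lower and 0 higher in knockout, while 2.71% of all genes were lower and 2.02% higher. The log2 change was positive for 6 and negative for 12 of the 18, with 50.6% of all genes positive. Without wild-type library 6 alone it was positive for 15 and negative for 3, with 52.4% of all genes positive. Without the libraries numbered 6 of both genotypes it was positive for 10 and negative for 6 of 16 tested, with 52.3% of all genes positive. With library totals it was positive for 10 and negative for 8, while 68.6% of all genes were positive. Hepatocyte markers were negative in 17 of 17 tested in muscle, with a median of −0.47, and exocrine pancreas markers in 7 of 7, with a median of −1.27; their part in the P450 values was not tested. The gene with the unadjusted p under 0.05 was cyp1c1, at 3.49, 7.73 and 17.1 CPM in wild-type muscle against 0.315, 4.94 and 6.93 CPM in knockout muscle (lowest, median, highest). All 8 knockout muscles lay under the wild-type median, and the groups overlapped. The log2 change was −0.94 ± 0.37 (adjusted p = 0.951).

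cyp3c4 and cyp2aa8 followed in muscle. cyp3c4 stood at 3.23, 5.82 and 7.87 CPM in wild type against 2.56, 7.95 and 13.8 CPM in knockout, a log2 change of 0.47 ± 0.29 (adjusted p = 0.951). Without the libraries numbered 6 it was 0.30. cyp2aa8 stood at 28, 46.1 and 57.3 CPM and at 34, 55.3 and 71.1 CPM, a log2 change of 0.24 ± 0.17 (adjusted p = 0.96). Knockout values ran higher at the top of both ranges, and the groups overlapped for both genes.

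Whether the genotype difference itself differed between the tissues was tested over all 32 libraries. No member of 34 tested was called, where 0.211% of 13725 genes were (29 genes); DESeq2 called 0 members. At an unadjusted p under 0.05, 7 members had a larger log2 change in liver and 0 a smaller one, against 12.2% and 6.1% of all genes. These counts were 1 larger and 4 smaller with library totals, 2 and 1 with thinned counts, and 4 and 0 without the muscle libraries numbered 6. The smallest p was that of cyp2p7, named here after its value was seen, at 2.53 ± 0.75 on the log2 scale (adjusted p = 0.109). Its levels ran from 2.15 to 9.69 CPM in wild-type and from 0 to 3.64 CPM in knockout muscle, and from 1.33 to 7.48 CPM in wild-type liver against 0.776 to 10.3 CPM in knockout liver. These are few counts, and cyp2p7 sits beside other cyp2p genes.

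Variation between fish was wide for several members. The coefficient of variation over 8 livers had a median of 48.6% over the 35 members in wild type and of 41.3% in knockout. It was lowest for cyp2aa12 in wild type (21.6%) and cyp4v7 in knockout (13.3%), and highest in both for cyp2k22 (267% and 278%). cyp2k22 stood at 441 CPM in wild-type liver 5 and at 1141 CPM in knockout liver 1, and in the other livers between 0.666 and 9.005 CPM. It was thus scarce in 14 livers and the most abundant member in the other 2. In muscle it stood between 0.538 and 4.77 CPM. cyp2r1, the gene of the vitamin D 25-hydroxylase, ran from 0.666 to 87.8 CPM in wild-type and from 0.956 to 113 CPM in knockout livers, with medians of 19.5 and 11.4 CPM. Its values were spread along the whole range in both genotypes, with a log2 change of 0.09 ± 0.99 (adjusted p = 0.964).

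The 2 livers with high cyp2k22 also stood at the edge for other genes. cyp2y3 was highest there in each genotype, at 327 and 632 CPM, as was cyp3a65, at 18.8 and 147 CPM. cyp2k6 was lowest there, at 76.6 and 31.7 CPM, so that the cyp2k genes did not go together. Among genes outside the families, esr1, the oestrogen receptor, was lowest of its group in both, at 10.1 and 11.6 CPM, as was vtg1, the egg yolk precursor that oestrogen induces, at 70344 and 34561 CPM. Summed hepatocyte markers were highest of their group in both, at 126176 and 160115 CPM. The reductase gene porb was also highest there, at 164 and 231 CPM. Wild-type liver 5 held the highest value of 16 of the 35 members and knockout liver 1 that of 13. With both livers left out 0 of 30 members were called, 24 had a log2 change above 0 and 6 below it, and cyp2y3 changed by 0.35. Members that reach the count minimum only through the knockout livers were not set apart in this split. These 2 fish were picked for their cyp2k22 values, so their other values are a description.

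**Figure D5:**
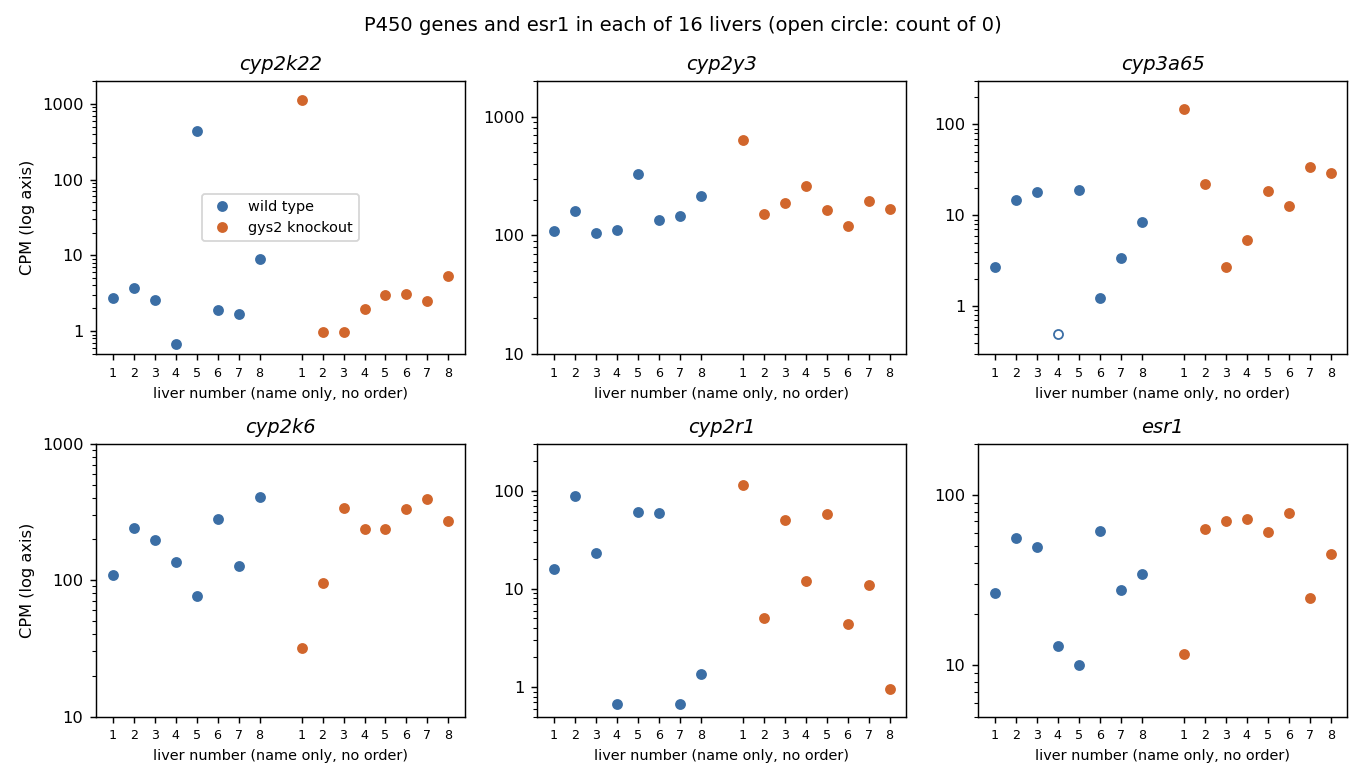
CPM on log axes of 5 P450 genes and the oestrogen receptor esr1 in each of the 16 livers, wild type in blue (left of each panel) and knockout in orange; liver numbers are names without order, and an open circle stands for a count of 0. Wild-type liver 5 and knockout liver 1 hold the high cyp2k22 values of 441 and 1141 CPM, the highest cyp2y3 and cyp3a65 and the lowest cyp2k6 and esr1 of their groups, while cyp2r1 is scattered over both genotypes.

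The partners of the P450 enzymes were read from lists chosen with earlier results known, and no member of any list was called in liver or muscle. All list counts, here and below, come from the TMM fits. In the TMM fit of liver 48.2% of all genes were positive, which is the share to set beside the liver counts. With library totals 16% of all genes were positive in liver, and the lists were not recounted with that scaling. Of the redox partners, 7 of 8 tested in liver had a positive log2 change, with a median of 0.71 against −0.02 over all genes. cyb5b, a cytochrome b5 gene, averaged 5.00 ± 1.37 CPM in wild-type liver against 11.4 ± 6.99 CPM in knockout liver, a log2 change of 1.21 ± 0.33 (adjusted p = 0.089). cyb5r3, a cytochrome b5 reductase gene, averaged 6.19 ± 2.57 and 12.3 ± 4.45 CPM, a log2 change of 1.00 ± 0.29 (adjusted p = 0.0945). For pgrmc2, a heme-binding membrane protein gene, the log2 change was 0.80 ± 0.27 (adjusted p = 0.131). P450 reductase is split over pora and porb in this table, looked up after the list; porb averaged 69.1 ± 42.2 and 96.2 ± 59.6 CPM, a log2 change of 0.48 ± 0.35 (adjusted p = 0.398). In muscle 2 of 9 redox partners tested were positive.

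Heme synthesis and breakdown genes were positive in 7 of 7 tested in liver, with a median log2 change of 0.44. alas1, the first enzyme of heme synthesis, averaged 41.6 ± 42.0 CPM in wild type against 87.5 ± 110 CPM in knockout, a log2 change of 1.09 ± 0.67 (adjusted p = 0.328). Among receptors and partners that control P450 genes, 10 of 11 tested were positive with a median of 0.10. The exception was arnt2, a partner of the aryl hydrocarbon receptor, at 20.4 ± 7.14 and 13.5 ± 2.17 CPM and a log2 change of −0.62 ± 0.23 (adjusted p = 0.144). ppardb, a fatty acid receptor gene, changed by 0.89 ± 0.36 on the log2 scale (adjusted p = 0.165).

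Conjugation enzymes, which act on P450 products, were positive in 36 of 46 tested in liver, with a median log2 change of 0.33. mgst1.2, a microsomal glutathione transferase gene, averaged 210 ± 82.4 CPM in wild type against 385 ± 155 CPM in knockout, a log2 change of 0.87 ± 0.27 (adjusted p = 0.108). gsta.2 changed by 0.80 ± 0.25 (adjusted p = 0.118) and nat16 by −0.56 ± 0.17 (adjusted p = 0.121). Of 7 eicosanoid and epoxide genes tested 6 were positive, with a median of 0.14, and of 15 targets of the fatty acid receptor PPAR alpha 13 were, with a median of 0.39. In the P450 families outside 1 to 4, 9 of 14 tested were positive, with a median of 0.11. cyp46a1.2, of the brain cholesterol hydroxylase family, changed by 0.81 ± 0.26 (adjusted p = 0.123) and cyp19a1b, a brain aromatase gene, by −0.52 ± 0.19 (adjusted p = 0.141). cyp24a1, which inactivates vitamin D, averaged 69.7 ± 44.6 and 132 ± 58.6 CPM, a log2 change of 0.92 ± 0.42 (adjusted p = 0.202). In muscle, where the hepatocyte markers were also negative and 50.6% of all genes were positive, 32 of 45 conjugation genes and 10 of 14 other P450 genes were negative; these lists were not recounted without the libraries numbered 6.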

How the data were processed

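The table the authors deposited holds raw counts, in whole numbers, by gene symbol for 32 libraries. Salmon 1.10.2, BWA 0.7.17-r1188, fastp 0.23.4 and the build GRCz11 are named, without role or order, in the submitters' processing notes. The sources used here do not give the annotation release, the use of strand and molecular identifiers, batches or dates, and counting errors from PCR reads cover counting alone. Groups follow the sample titles, and replicates are separate fish per the labels. Members, lists and tests were chosen with earlier results of these data known.

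Genes were tested with edgeR 4.0.16 in R 4.3.3 (robust quasi-likelihood F test, TMM scaling, filterByExpr at 10 counts and a total of 15). Each fit ran over the whole table, with Benjamini-Hochberg adjustment over all genes tested and a threshold of 0.05. CPM are counts over filtered library size times TMM factor, per tissue, as mean ± SD; log2 changes carry ± SE. The steps were tested on simulated data, with changes placed in genes above a count minimum, so scarcer genes were not covered. The liver fit recovered 51 of 100 changes of 2-fold and 96 of 100 of 4-fold, and the muscle fit 60 and 100 of 100. Changes of 2-fold or less can thus be missed. The simulated data held many changed genes, which eases the adjusted threshold, while the real liver fit called 7 genes. Recovery in the real fits can therefore be lower, and larger changes can be missed too. Values per fish are given for the 10 members with the smallest p in liver, the 3 in muscle and the leading gene of each subfamily with 2 or more members, and for up to 3 genes of each list, with cyp24a1, esr1, vtg1, pora, porb and the fish-to-fish values of cyp2k22 and cyp2r1 added after their values were seen. Alternatives were DESeq2 1.42.0, limma-voom (limma 3.58.1) with quality weights, other scalings, cyclic loess, other filters, thinned counts, removal of vitellogenins, a block on replicate number and left-out libraries. No sequences are shown, because the reference tables used here hold none.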

Additional observations from a re-analysis of the deposited data

Results flagged for a closer look

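Single libraries stood far from the other 7 of their group, by Dixon's criterion for 8 samples, in 24 combinations of a described P450 gene and a group. Over all 35 members 36 of 140 combinations met it. The chance rate of about 1 in 20 holds for normally distributed, independent values. These are unlogged CPM, often of few counts, and the genes share libraries, so the count cannot be set against that rate.

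Wild-type muscle 6 was such a library for cyp1a (57.9 CPM), cyp2ad2 (76.5), cyp2y3 (25.1), cyp2k6 (23.2), cyp4v8 (15.6), cyp4t8 (11.8) and cyp2x10.2 (6.76 CPM). Knockout muscle 6 was for cyp2ad2 (37.7 CPM), cyp1a (26.7), cyp2k6 (14.4), cyp2x10.2 (7.36) and cyp2k18 (3.07 CPM). Both libraries also held the most hepatocyte markers of their group, and the part of those in the P450 values was not tested.

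Among livers, wild-type liver 5 was far above its group for cyp2k22 (441 CPM) and cyp2x10.2 (72.0 CPM). Knockout liver 1 was for cyp2k22 (1141 CPM), cyp2y3 (632 CPM) and cyp3a65 (147 CPM). Knockout liver 6 stood high for cyp1a (229 CPM) and cyp1c1 (4.03 CPM), knockout liver 7 for cyp2k18 (106 CPM) and knockout liver 8 for cyp1b1 (16.7 CPM). Wild-type liver 2 stood high for cyp3c1 (177 CPM) and wild-type liver 7 for cyp2aa8 (72.3 CPM). In muscle, knockout library 8 stood high for cyp2p7 (3.64 CPM).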

How the results depend on the processing

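The count of 0 members called in liver changed with library totals alone, to 4, all lower in knockout; that of muscle changed under no alternative run, and that of the interaction changed with library totals alone, to 2 (cyp2aa8 and cyp3c4). Between the tissues the stricter filter of 50 counts, which tests fewer genes, called 11 members in wild type and 17 in knockout. Over all genes the 7 calls in liver became 423 with DESeq2, 3249 with library totals, 99 with no filter, 48 with the stricter filter, 4 with thinned counts and 224 with limma-voom. The 0 of muscle became 2 with DESeq2 and 3 with no filter. Between the tissues the stricter filter gave 1875 in wild type and 3051 in knockout, and library totals 9021 in knockout. The 29 calls of the interaction became 281 with DESeq2, 3372 with library totals, 107 with no filter, 18 with thinned counts, 7 without the muscle libraries numbered 6 and 49 without wild-type liver 5 and knockout liver 1; these last 2 sets were left out after seeing the data. Leaving out each library in turn called 0 to 0 members in either tissue, 2 to 68 genes in liver (68 without wild-type liver 5) and 0 to 1 in muscle. In liver the log2 change reversed with library totals for cyp2ad3 (−0.033), cyp2aa6 (−0.24), cyp2ad2 (−0.36), cyp2k6 (−0.24), cyp2p6 (−0.35) and cyp4v8 (−0.33), with cyclic loess for cyp2ad2 (−0.13) and cyp2k6 (−0.17), and with thinned counts for cyp2p6 (−0.010). Subfamily sums in CPM of plain library totals, with no TMM factor, moved when vitellogenins were left out of the total. In wild-type liver cyp2aa went from 128 to 169, cyp2ad from 253 to 336, cyp2p from 87.7 to 114, cyp2x from 144 to 191 and cyp4v from 123 to 161. In knockout liver cyp2ad went from 204 to 296, cyp2p from 72.6 to 102, cyp2x from 115 to 168 and cyp4v from 104 to 149. On either total the means of these 5 subfamilies were lower in knockout. With TMM all 5 were higher in knockout: cyp2aa (108 and 121), cyp2ad (221 and 251), cyp2p (75.3 and 86.4), cyp2x (126 and 141) and cyp4v (108 and 125). These 5 are listed because their sum moved by more than its SD in at least 1 genotype. cyp2k and cyp3c moved by less than their SD, and their means were higher in knockout on either total. For cyp2k they were 377 and 427 with vitellogenins in the total and 486 and 563 without. With vitellogenins in the total, cyp2k22 held 64.1 of the wild-type and 151 of the knockout cyp2k mean, each made by a single liver. The cyp2k means were not taken without cyp2k22, so their direction is not shown to hold beyond those livers. For cyp3c the means were 107 and 124, and 139 and 172. The cause of each other change was not tested.

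Replicate numbers are shared by the groups. Between the genotypes, deviations of same-numbered libraries correlated over 0.1 in 4 of 8 pairs of livers and 6 of 8 pairs of muscles. Between liver and muscle this held for 1 of 8 pairs in wild type and 3 of 8 in knockout. The labels do not name the numbers as pairs, and they were not taken as such. What same-numbered muscles share was not tested. With the replicate block 0 members were called in liver, muscle and the interaction. Over all genes it gave 5 calls in liver, 2 in muscle and 20 in the interaction. Between the tissues the log2 change was then positive for 25 of 25 members in wild type and 28 of 29 in knockout. Of all genes tested, 48.8% and 42.5% were positive. The members include genes for which the count minimum favoured liver, so these counts are no support.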
